A study of Mus musculus with 4 samples.

Results

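The 10 genes followed here are receptors of the BMP, activin and TGF-beta family, measured in injured muscle that goes on to form bone. They were chosen by gene symbol as a fixed list, not by a measured value, and all 10 were found among the 32285 genes counted in the series. The list was drawn up with earlier results of these data known. Of them 5 are type I receptors (*Acvr1*, *Acvr1b*, *Bmpr1a*, *Bmpr1b* and *Tgfbr1*), 4 are type II receptors (*Acvr2a*, *Acvr2b*, *Bmpr2* and *Tgfbr2*) and 1 is a co-receptor (*Tgfbr3*). The series held 4 droplet single-cell RNA libraries from the tibial muscle of *Nse-Bmp4* mice, in which the neuron specific enolase promoter drives *Bmp4*, on a C57BL/6 background at 6 to 8 weeks of age. One library came from uninjured muscle and 1 each from muscle at 1, 3 and 7 days after injury with cardiotoxin, a snake venom toxin that kills muscle fibres (1, 3 and 7 dpi). Every library was a single pool of 3 digested muscles, all 4 groups carried the transgene, and the uninjured muscle was the only baseline. With 1 library per time point there was no replicate and no test between time points, and the intervals below cover counting error only.

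BMPs, activins and TGF-beta act as dimers that bring type I and type II receptor kinases together, after which the type II receptor phosphorylates the type I receptor and the type I receptor phosphorylates Smad proteins. BMP type I receptors act through Smad1, Smad5 and Smad9, whereas activin and TGF-beta type I receptors act through Smad2 and Smad3. An activating mutation of the human counterpart of *Acvr1* causes fibrodysplasia ossificans progressiva, the inherited form of heterotopic ossification, and mesenchymal cells of muscle are a known source of the ectopic cartilage and bone.

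The promoter windows listed for the family differed in their content of CpG dinucleotides. The window with the fewest and the window with the most are shown to make that contrast visible. RefSeq windows on GRCm38.p6 were matched for 9 of the 10 genes, all but *Tgfbr3*, with 12 promoters in all because *Bmpr1b* has 3 and *Tgfbr1* has 2. The search was for the letters CG, which read the same on both strands, in the 250 bases before each start. Capitals mark each CG, and both windows are given from 5′ to 3′ on the strand of the gene.
*Bmpr1b* (chr3:141982265-141982514, minus strand): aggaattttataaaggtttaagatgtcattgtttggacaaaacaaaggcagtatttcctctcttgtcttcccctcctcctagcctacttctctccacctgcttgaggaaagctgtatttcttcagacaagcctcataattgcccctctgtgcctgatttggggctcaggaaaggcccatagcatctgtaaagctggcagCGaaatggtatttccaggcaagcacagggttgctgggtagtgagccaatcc
*Acvr2a* (chr2:48813859-48814108, plus strand): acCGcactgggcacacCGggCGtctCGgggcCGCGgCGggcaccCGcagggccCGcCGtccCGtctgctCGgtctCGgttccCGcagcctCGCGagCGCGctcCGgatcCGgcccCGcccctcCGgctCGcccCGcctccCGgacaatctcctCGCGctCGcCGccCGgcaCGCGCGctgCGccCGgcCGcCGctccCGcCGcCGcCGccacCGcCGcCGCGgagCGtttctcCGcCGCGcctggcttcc
The *Bmpr1b* window held 1 CG, and 92.1% of 32851 mouse promoters of that length held at least as many. The other pair of *Bmpr1b* windows held 5 each, against a median of 6 over all promoters. *Bmpr1b* spans 141837136 to 142169425 on the minus strand of chromosome 3, so its 3 windows lie inside the annotated gene. The bases before its annotated 5′ end were not examined, so these counts do not describe a promoter there. The *Acvr2a* window held 49, which 0.146% of promoters reached. The main *Tgfbr1* window held 29 and its other window 3, *Tgfbr2* held 12, *Bmpr2* 22, *Acvr2b* 24, *Bmpr1a* 36, *Acvr1b* 42 and *Acvr1* 46. These counts describe the windows only and were not compared with the levels below.

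Cells were sorted into 13 classes by how many marker genes of a class carried a UMI (a unique molecular identifier, which counts 1 captured RNA molecule), and levels are in CPM, that is, a gene's UMIs scaled to 1000000 UMIs summed over the cells of that class and library. The libraries held 11722 to 23752 barcodes, of which 9641 to 20301 passed the filters, and pairs of libraries shared 30 to 95 barcodes. MSC lineage cells, the mesenchymal cells marked by *Pdgfra*, *Prrx1*, *Dcn* and collagen genes, numbered 8434 in uninjured muscle, 3931 at 1 dpi, 6743 at 3 dpi and 9262 at 7 dpi. Each of their 8 markers was detected in every library, while the summed endothelial markers lay between 3.96 and 23.6 CPM in them. Both values follow in part from the gate, which uses these same lists, so they are no independent check. Their median depth went from 9144 UMIs per cell in uninjured muscle to 8027 at 1 dpi, 5487 at 3 dpi and 2649.5 at 7 dpi. Chondrocyte-like cells, with at least 6 of 10 cartilage markers, were found in the 7 dpi library alone and numbered 4472. Some classes were small, with 23 to 112 endothelial cells, 8 to 149 mural cells and 76 to 164 muscle cells (satellite cells and myoblasts) per library. RNA captured from other cells adds to every class, so NK and T cells are given below as a class that shows how low a level can be. Levels of different genes were not compared, because capture differs between transcripts.

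**Figure D1:**
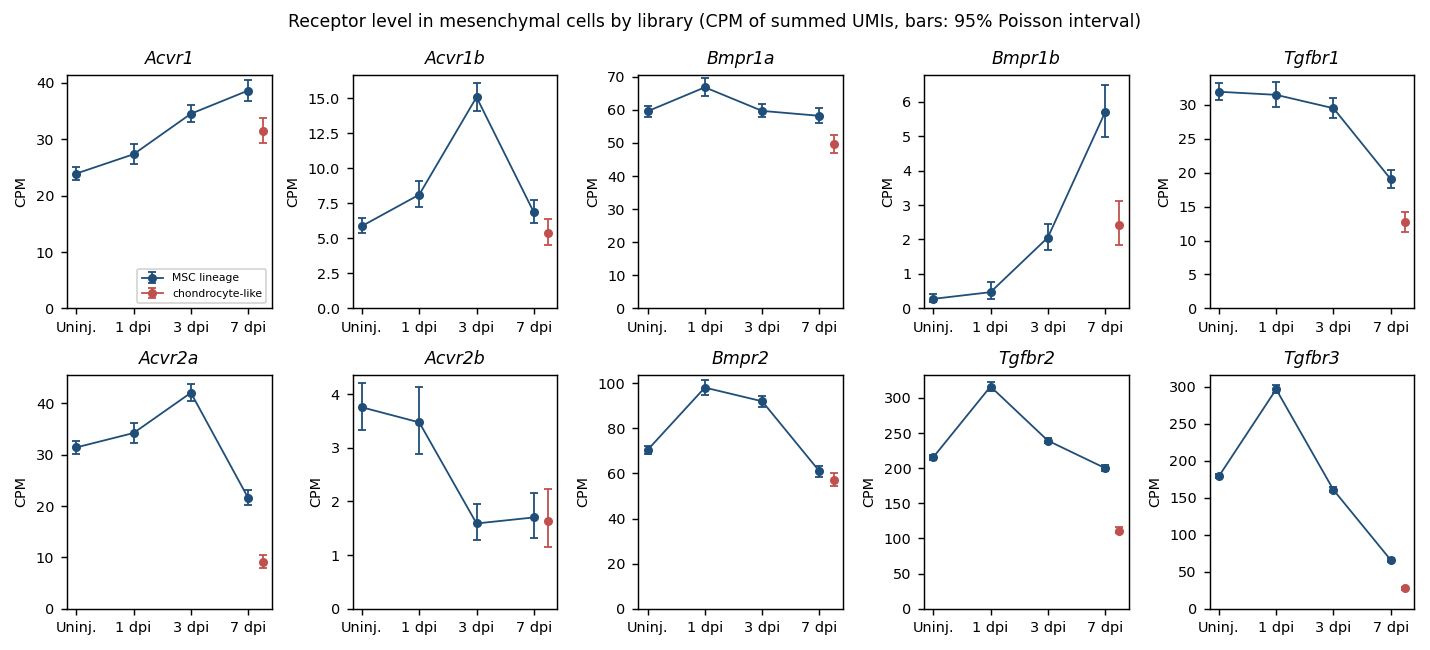
Level of each receptor in MSC lineage cells by library, with chondrocyte-like cells at 7 dpi beside them; the vertical axis is CPM of summed UMIs from 0, the horizontal axis is the library, points are 1 library each and bars are 95% Poisson intervals. *Bmpr1b* rose from 0.278 to 5.69 CPM, *Tgfbr3* and *Bmpr2* were highest at 1 dpi, *Acvr1b* and *Acvr2a* were highest at 3 dpi, and *Bmpr1a* stayed between 58.2 and 66.8 CPM.

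*Bmpr1a*, the widely used type I receptor for BMP2 and BMP4, was present at nearly the same level in MSC lineage cells throughout. It measured 59.6 CPM in uninjured muscle, 66.8 at 1 dpi, 59.7 at 3 dpi and 58.2 at 7 dpi. The 7 dpi level was 0.977 times the uninjured level, with an interval of 0.930 to 1.03. The gene was found in 40% of the uninjured MSC lineage cells, against 0.988% of NK and T cells of the same library at a median of 3602 UMIs. Thinned to 1000 UMIs per cell, these shares were 5.74% and 0.247%. *Bmpr1a* spans 34410734 to 34503341 on the minus strand of chromosome 14, and *Gm17110* lies on the opposite strand within it.

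Outside the mesenchyme, *Bmpr1a* followed cell class more than time. Mural cells, which wrap small vessels, had 77.3 CPM in uninjured muscle and 52.0 at 7 dpi, the libraries with at least 20 of them. Muscle cells had 38.7 to 72.3 CPM and Schwann cells 39.99 to 108. Endothelial cells gave a single *Bmpr1a* UMI in 255 cells over the 4 libraries, which left MSC lineage cells 63.2-fold higher over the pooled libraries, with a counting interval of 11.3 to 2495. Monocytes and macrophages had 0.54 to 1.79 CPM and NK and T cells 1.63 to 3.83. Neutrophils stood above the other immune cells, at 17.6, 22.9, 24.1 and 28.0 CPM from uninjured muscle to 7 dpi. However, the first and last of these rest on 4 UMIs each. Over the pooled libraries neutrophils had 23.1 CPM with an interval of 18.8 to 28.0.

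*Acvr1*, the type I receptor that is mutated in fibrodysplasia ossificans progressiva, was higher in MSC lineage cells in each later library. It measured 23.9 CPM in uninjured muscle, 27.4 at 1 dpi, 34.5 at 3 dpi and 38.6 at 7 dpi, a 1.61-fold difference between the ends with an interval of 1.51 to 1.73. Muscle cells reached 40.7 CPM at 3 dpi and endothelial cells 48.2 at 1 dpi, the latter from 16 UMIs. NK and T cells stayed at or under 3.03 CPM, and neutrophils gave 1 UMI in all libraries. Within the MSC lineage, an *Lrrc15* group of cells, marked by *Lrrc15*, *Tnn*, *Postn* and *Adam12*, held more *Acvr1* by summed UMIs than the other groups, with 42.7 CPM at 3 dpi and 49.1 at 7 dpi, while a *Pi16* group went from 21.0 CPM in uninjured muscle to 26.6 at 7 dpi. The *Lrrc15* excess did not hold at 3 dpi with cells thinned to 1000 UMIs, where the *Lrrc15* group had *Acvr1* in 1.65% of cells (0.666% to 3.37%) against 2.86% in the *Pi16* group. At 7 dpi the thinned shares were 4.81% in the *Lrrc15* group, 5.04% in tenocyte-like cells and 3.13% in the *Pi16* group. The gene lies on the minus strand of chromosome 2 from 58388644 to 58567157.

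*Bmpr1b*, the type I receptor that is known for its part in cartilage condensation and that also binds GDF5, was the rarest type I receptor by UMI number and the one that changed most. MSC lineage cells gave 22 UMIs in uninjured muscle (0.278 CPM), 17 at 1 dpi (0.473 CPM), 119 at 3 dpi (2.06 CPM) and 234 at 7 dpi (5.69 CPM). The 7 dpi level was 20.5-fold above the uninjured level, with an interval of 13.2 to 33.3. NK and T cells, B cells, neutrophils, dendritic cells, Schwann cells and endothelial cells gave no UMI in any library. The 0 UMIs of NK and T cells allow levels of up to 1.88, 0.639, 0.698 and 1.70 CPM in order of time. The MSC lineage level was above that limit at 3 and 7 dpi and not in uninjured muscle or at 1 dpi. The limits were 8.47 to 26.9 CPM for endothelial cells and 3.64 to 9.97 for Schwann cells. For neutrophils they were 0.942 to 21.0 and for B cells 0.757 to 20.2. In these classes the limit lay above the MSC lineage level of every library, so their 0 UMIs do not show a lower level. For dendritic cells it lay below that level at 3 dpi alone (1.20 CPM).

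The few *Bmpr1b* molecules of resting muscle were not spread evenly. Tenocyte-like cells, marked by *Tnmd*, *Scx* and *Mkx*, made up 0.877% of uninjured MSC lineage cells and carried 63.6% of their *Bmpr1b* UMIs, 14 of 22. Their level was 20.2 CPM in uninjured muscle, 30.5 at 1 dpi, 11.9 at 3 dpi and 8.54 at 7 dpi, from 9 to 32 UMIs. The 7 dpi level was 2.37-fold below the uninjured one, with an interval of 1.17 to 4.56. Thinned to 1000 UMIs, 0 of 74 tenocyte-like cells of uninjured muscle held the gene (up to 4.86%) against 0.504% of 793 at 7 dpi, so the difference was not detectable at that depth. At 7 dpi tenocyte-like cells carried 13.7% of the UMIs with 8.75% of the cells, and the *Lrrc15* group 35.0% with 16.3%. Cells of no subgroup carried the largest share, 43.2% of the UMIs with 60.1% of the cells.

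*Acvr1b*, an activin type I receptor, peaked in the 3 dpi library. MSC lineage cells had 5.88 CPM in uninjured muscle, 8.12 at 1 dpi, 15.1 at 3 dpi and 6.86 at 7 dpi. The peak was seen in the *Pi16* group (13.6 CPM) and in the *Smoc2* group (19.6 CPM). The MSC lineage level at 7 dpi was 2.20-fold lower than at 3 dpi with an interval of 1.92 to 2.52. B cells had 13.5 to 16.4 CPM in the 4 libraries, from 72 UMIs in all. That range lay above the MSC lineage value in all libraries but that of 3 dpi. With 95 B cells at 7 dpi, their level there is imprecise. *Acvr1b* is on the plus strand of chromosome 15, from 101174067 to 101213684.

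*Tgfbr1*, the TGF-beta type I receptor, was detected in every large class. In MSC lineage cells it measured 31.9 CPM in uninjured muscle, 31.4 at 1 dpi, 29.5 at 3 dpi and 19.0 at 7 dpi, so the first 3 libraries lay together and the last was 1.68-fold below the first (1.55 to 1.82). Monocytes and macrophages had 31.6, 27.1, 40.5 and 35.0 CPM in the same order and NK and T cells 15.3 to 20.6. Tenocyte-like cells had 56.3 CPM in uninjured muscle and 126 at 1 dpi, the latter from 37 UMIs in 39 cells, and 22.4 at 7 dpi. The gene lies on the plus strand of chromosome 4 from 47353222 to 47414931.

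*Bmpr2*, the BMP type II receptor whose human counterpart is mutated in pulmonary arterial hypertension, was highest in endothelial cells. They had 233 CPM in uninjured muscle, 419 at 1 dpi, 358 at 3 dpi and 143 at 7 dpi, above MSC lineage cells in each library. MSC lineage cells measured 70.4, 98.1, 92.0 and 60.9 CPM in the same order, with the 1 dpi level 1.39-fold above uninjured muscle (1.34 to 1.45). Schwann cells had 77.6, 131, 169 and 93.1 CPM. NK and T cells had 1.88 to 12.6 CPM and B cells 2.05 to 8.50. *Bmpr2* spans 59763400 to 59879014 on the plus strand of chromosome 1.

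*Tgfbr2*, the type II receptor that binds TGF-beta, had the most UMIs of the 10 genes in MSC lineage cells, 50502 in all. It measured 216 CPM in uninjured muscle, 316 at 1 dpi, 239 at 3 dpi and 200.1 at 7 dpi, and the 1 dpi level was 1.47-fold above the uninjured level with an interval of 1.43 to 1.5. Mural cells stayed at 45.2 and 41.6 CPM in the uninjured and 7 dpi libraries, and muscle cells at 18.9 to 51.3 CPM. B cells had 111 to 171 CPM and NK and T cells 58.5 to 110.5, so lymphocytes carried this receptor too. The gene is on the minus strand of chromosome 9, from 116084293 to 116175360.

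*Acvr2a*, a type II receptor for activins and BMPs, rose to 3 dpi and then fell in MSC lineage cells. It measured 31.4 CPM in uninjured muscle, 34.2 at 1 dpi, 42.1 at 3 dpi and 21.6 at 7 dpi, and the last step was a 1.95-fold decrease with an interval of 1.80 to 2.11. Schwann cells had 52.6 CPM at 3 dpi from 18 UMIs and muscle cells 51.6 at 1 dpi from 20 UMIs. Monocytes and macrophages had 3.57, 11.3, 16.5 and 4.0 CPM. *Orc4* overlaps the 3′ end of *Acvr2a* on the opposite strand of chromosome 2, where *Acvr2a* runs from 48814109 to 48903269.

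*Acvr2b*, an activin type II receptor that also binds myostatin, was lower in MSC lineage cells than in muscle, Schwann and endothelial cells. MSC lineage cells had 3.76 CPM in uninjured muscle, 3.47 at 1 dpi, 1.59 at 3 dpi and 1.70 at 7 dpi, a step of 2.18-fold between 1 and 3 dpi with an interval of 1.66 to 2.89. Muscle cells had 17.2, 15.5, 5.99 and 16.4 CPM and Schwann cells 20.6, 20.7, 11.7 and 13.3, above MSC lineage cells in each library. Endothelial cells had 8.47 to 18.1 CPM from 13 UMIs in all. *Acvr2b* lies on the plus strand of chromosome 9 from 119402118 to 119434995, with *Gm47320* on the opposite strand.

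*Tgfbr3*, which encodes betaglycan, a co-receptor that presents TGF-beta to its receptors and also binds inhibin, had the widest range of the abundant members. MSC lineage cells measured 179 CPM in uninjured muscle, 297 at 1 dpi, 161 at 3 dpi and 65.9 at 7 dpi. The first step was a 1.66-fold increase (1.62 to 1.70), and the 7 dpi level was 2.72-fold below uninjured muscle (2.61 to 2.84). Shares of cells thinned to 1000 UMIs were 16.5%, 24.4%, 17.6% and 5.90%, again highest at 1 dpi and lowest at 7 dpi, against 0.773% to 1.55% of NK and T cells. Unthinned shares were 73.5%, 78.0%, 59.2% and 20.2%.

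Muscle cells had the same peak at 1 dpi, with *Tgfbr3* at 114, 361, 55.7 and 49.2 CPM, and Schwann cells had 114, 129, 155 and 86.4. Monocytes and macrophages had 2.38 to 4.86 CPM. In endothelial cells the 7 dpi level was the highest, 93.9 CPM from 23 UMIs, against 31.0 at 3 dpi from 11 UMIs. The ratio of *Tgfbr3* to *Tgfbr2* UMIs within MSC lineage cells, which does not depend on the total of the library, was 0.831 in uninjured muscle, 0.938 at 1 dpi, 0.672 at 3 dpi and 0.329 at 7 dpi. *Tgfbr3* is on the minus strand of chromosome 5, from 107106570 to 107289629.

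**Figure D2:**
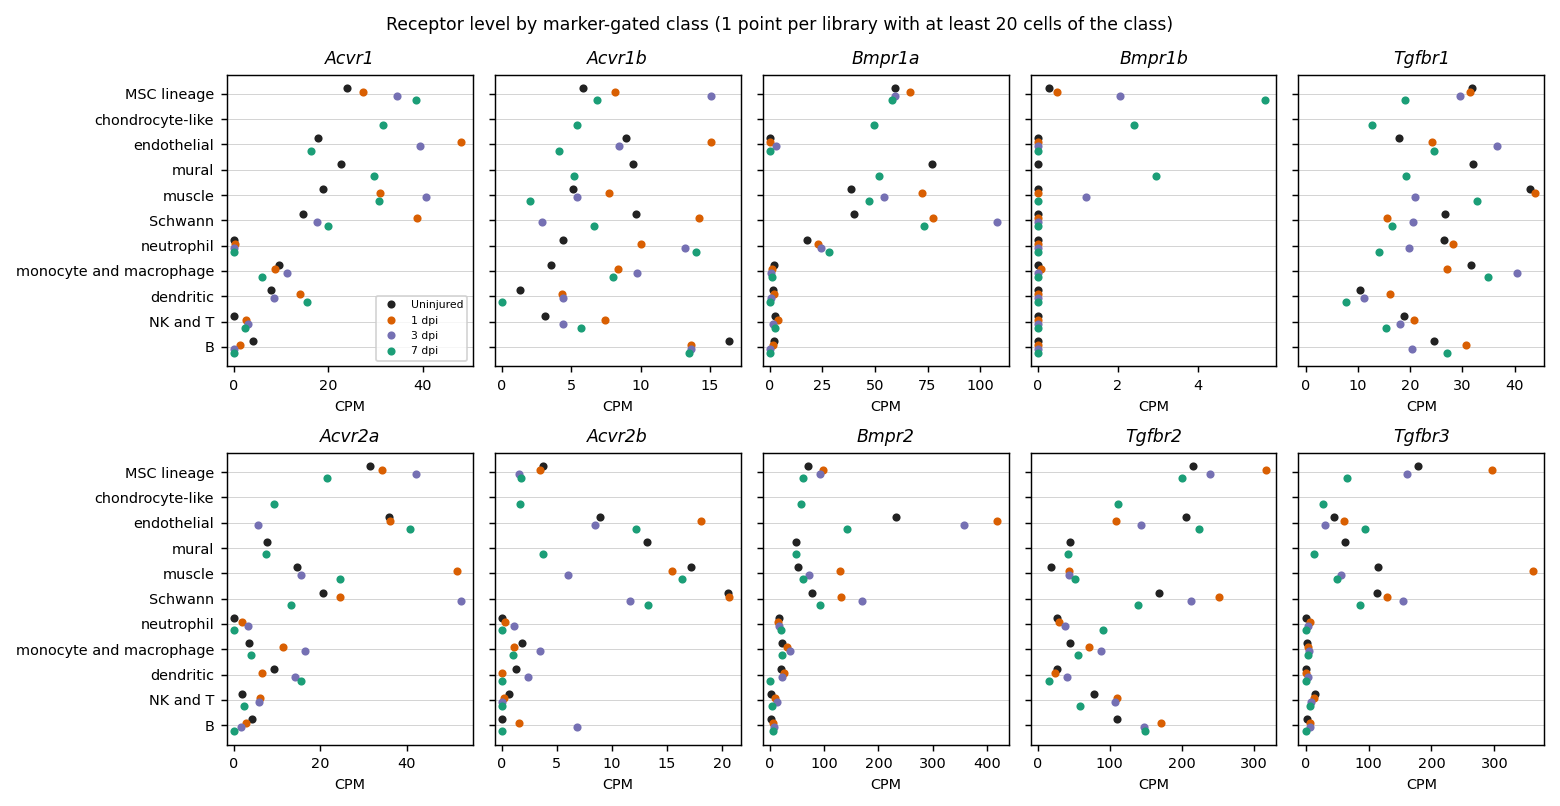
CPM of each receptor (horizontal axis, from 0) in 11 marker-gated classes (vertical axis), with 1 point per library that held at least 20 cells of the class and colour for the library. *Bmpr2* was highest in endothelial cells (143 to 419 CPM), *Bmpr1a* was near 0 there, and *Tgfbr2* was highest in MSC lineage cells in 3 of 4 libraries.

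Between successive libraries, 0, 2 and 3 of the 10 members passed 2-fold in MSC lineage cells, in order of time. In either direction 16.3%, 13.5% and 17.5% of all genes did. The members that passed were mostly those with few UMIs. A member was called when its CPM ratio was over 2 or under 0.5 with at least 20 UMIs in both libraries together, and all 10 met that minimum. At 1 dpi against uninjured muscle no member was called, where 10.9% of 15401 genes were called higher and 5.39% lower. At 3 dpi against 1 dpi, *Bmpr1b* was called higher (4.35-fold, 2.61 to 7.72), where 7.62% of genes were, and *Acvr2b* lower, where 5.87% were. At 7 dpi against 3 dpi, *Bmpr1b* was again called higher (2.77-fold, 2.21 to 3.48), where 10.7% of genes were. *Tgfbr3* (2.44-fold, 2.34 to 2.55) and *Acvr1b* were called lower in that step, where 6.85% of genes were.

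Over the whole course, 1 member was higher at 7 dpi than in uninjured muscle, *Bmpr1b*, and 2 were lower, *Acvr2b* and *Tgfbr3*. Of 15820 genes 18.2% were called higher and 10.3% lower in that comparison. These comparisons share libraries, so they are not independent of each other. The median log2 ratio of the 10 members was 0.33, -0.09, -0.43 and -0.16 in the order 1 dpi against uninjured, 3 against 1 dpi, 7 against 3 dpi and 7 dpi against uninjured. The medians over all genes were 0.18, -0.06, -0.07 and 0.08, so the values at 1 dpi should be read against a general shift of 0.18. With each cell thinned to 1000 UMIs the *Bmpr1b* step from 3 to 7 dpi was 0.71 on the log2 scale rather than 1.47. Averaging the CPM of single cells left the *Acvr2b* step from 1 to 3 dpi at -0.45 rather than -1.13.

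Groups within the MSC lineage differed in their receptors in each library. The *Pi16* group (*Pi16*, *Dpp4*, *Cd55*, *Sema3c*, *Anxa3*) and the *Smoc2* group (*Smoc2*, *Col15a1*, *Lpl*, *Gdf10*, *C7*), which are fibroblast populations of resting muscle, were set apart, beside the *Lrrc15* group. The *Pi16* group numbered 3647, 1474, 1769 and 681 cells and the *Smoc2* group 3600, 1613, 2090 and 694, in order of time. The *Lrrc15* group held 1 and 8 cells in the first 2 libraries, 425 at 3 dpi and 1510 at 7 dpi. These groups rest on detected markers, so shallow cells are left out of them, and a median of 20383 UMIs marked the *Lrrc15* cells at 3 dpi.

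*Tgfbr2* was higher in the *Pi16* group than in the *Smoc2* group in 4 of 4 libraries. The *Pi16* group had 292, 454, 371 and 352 CPM, and the *Smoc2* group 146, 208, 205 and 193. The ratio was 2.0, 2.19, 1.81 and 1.83, and no interval reached below 1.68. *Acvr2a* had the opposite order in 4 of 4 libraries, with 18.1, 25.4, 32.8 and 23.0 CPM in the *Pi16* group and 45.8, 45.9, 64.9 and 41.4 in the *Smoc2* group, so that the *Smoc2* group was 2.54-, 1.81-, 1.98- and 1.80-fold higher. *Tgfbr3* hardly differed between them, with *Pi16* to *Smoc2* ratios of 1.06, 1.13, 1.05 and 1.19.

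The decrease of *Tgfbr3* by 7 dpi was found inside each group and was uneven. The *Pi16* group had 183, 319, 203 and 122 CPM, and its 7 dpi level was 1.5-fold below the uninjured level (1.38 to 1.63). In the *Smoc2* group, with 172, 283, 193 and 103 CPM, the same comparison was 1.68-fold (1.52 to 1.86). Tenocyte-like cells had 285, 400.3, 208 and 43.3 CPM, a 6.58-fold decrease with an interval of 5.32 to 8.15. The *Lrrc15* group started low, at 76.5 CPM at 3 dpi, and had 41.8 at 7 dpi. *Bmpr1b* in the *Lrrc15* group was 4.55 CPM at 3 dpi, at a median of 20383 UMIs per cell, and 8.20 at 7 dpi, at a median of 3973. Thinned to 1000 UMIs the shares of cells with it were 0.943% (0.258% to 2.40%) and 0.812% (0.420% to 1.41%), so no difference between these libraries was seen at matched depth. The 7 dpi level by summed UMIs was 5.39-fold (2.61 to 12.9) above the *Pi16* group and 3.13-fold (1.66 to 6.52) above the *Smoc2* group.

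**Figure D3:**
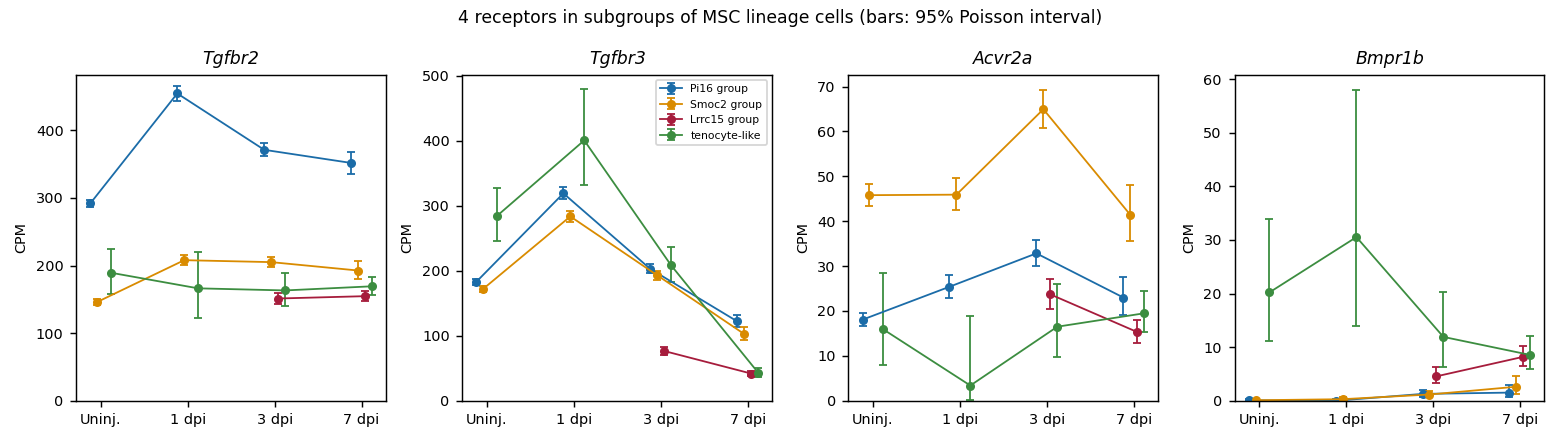
CPM of 4 receptors (vertical axis, from 0) by library (horizontal axis) in the *Pi16*, *Smoc2* and *Lrrc15* groups and tenocyte-like cells, for groups of at least 20 cells, with 95% Poisson intervals. *Tgfbr2* separates the *Pi16* group (292 to 454 CPM) from the *Smoc2* group (146 to 208), *Acvr2a* has the reverse order, and *Bmpr1b* in tenocyte-like cells was 20.2 CPM in uninjured muscle and 8.54 at 7 dpi.

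At 7 dpi, chondrocyte-like cells held less of several receptors than the MSC lineage cells of the same library. *Tgfbr3* was 27.9 CPM against 65.9 (2.36-fold lower, 2.17 to 2.57), *Acvr2a* 9.18 against 21.6 (2.35-fold, 2.03 to 2.74) and *Bmpr1b* 2.42 against 5.69 (2.35-fold, 1.76 to 3.19). These 3 were called lower and none higher, where 7.55% of 15228 genes were called lower and 4.96% higher, and the median log2 ratio was -0.47 for the members and -0.13 for all genes. *Tgfbr2* was 111 CPM against 200.1 (1.80-fold, 1.72 to 1.88) and *Tgfbr1* 12.7 against 19.0 (1.5-fold, 1.31 to 1.72). *Bmpr2*, at 57.3 against 60.9 CPM, *Bmpr1a*, at 49.6 against 58.2, and *Acvr1*, at 31.5 against 38.6, were closer, with ratios of 0.940, 0.853 and 0.815. The activin receptor *Acvr2b* was also close, at 1.63 against 1.70 CPM. The BMP receptor *Bmpr1b* was among those called lower by summed UMIs. Thinned to 1000 UMIs, it was found in 0.365% of chondrocyte-like cells and 0.409% of MSC lineage cells. Whether the order followed the ligand family was not tested. No member remained past 2-fold when each cell was thinned to 1000 UMIs, where the log2 ratios were -0.75 for *Tgfbr3*, -0.87 for *Acvr2a* and -0.16 for *Bmpr1b*, nor when the CPM of single cells was averaged. Chondrocyte-like cells were deeper, with a median of 3724 UMIs against 2649.5, and the part of depth in the difference was not tested beyond these values.

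Among chondrocyte-like cells, those with hypertrophic markers (*Col10a1*, *Ihh*, *Mef2c*, *Alpl*), which label late cartilage, were compared with those with none. By summed UMIs they had less of the TGF-beta receptors, at a median of 4677 UMIs per cell against 2536.5. *Tgfbr2* was 98.3 CPM in 2385 cells with such markers and 133 in 832 cells without (1.36-fold, 1.20 to 1.52). *Tgfbr3* was 23.8 and 36.7 CPM (1.55-fold, 1.22 to 1.94). *Acvr2a* was 8.09 and 12.1 CPM (ratio 0.668, 0.450 to 1.02) and *Bmpr1b* 2.28 and 4.17 (0.546, 0.272 to 1.19), differences of similar size whose intervals include an equal level. *Bmpr1a* was 47.9 and 54.2 CPM, and *Bmpr2* 56.4 and 64.0, also by summed UMIs. With thinned cells, *Bmpr1a* was found in 4.91% of cells with such markers and 4.29% of those without. *Bmpr1b* was found in 0.423% and 0.379%, and *Acvr1* in 3.21% and 4.55%, in the same order. The counting intervals of each pair overlapped, so the lower CPM of *Bmpr1a* and *Bmpr1b* was not seen at matched depth. Cells with 3 to 5 cartilage markers, between both classes, had 62.4 CPM of *Bmpr1a*, 44.3 of *Acvr1*, 5.50 of *Bmpr1b* and 41.5 of *Tgfbr3* at 7 dpi, so *Bmpr1b* was at the MSC lineage level in them and *Tgfbr3* was not.

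Cycling MSC lineage cells, with at least 3 of 5 mitotic markers, also differed from cells with none. At 3 dpi, 719 cycling cells had 0.39 of the *Tgfbr3* level of the cells with none (0.36 to 0.41), 0.49 of *Acvr2a* (0.43 to 0.54), 0.55 of *Tgfbr2* (0.52 to 0.57) and 0.56 of *Acvr1b* (0.46 to 0.67). *Bmpr2* was at 0.71 (0.66 to 0.76), *Bmpr1a* at 0.80 (0.73 to 0.87), *Acvr1* at 1.01 (0.91 to 1.13) and *Bmpr1b* at 2.65 (1.73 to 4.08). At 7 dpi, 779 cycling cells had 0.60 of *Tgfbr3* (0.53 to 0.69) and 0.66 of *Acvr2a* (0.52 to 0.83). In that library *Acvr1* was at 1.02, *Bmpr1a* at 1.03 and *Bmpr1b* at 1.45 (0.98 to 2.12). *Tgfbr2* was at 0.86 (0.80 to 0.92), *Acvr1b* at 0.79 (0.52 to 1.15) and *Bmpr2* at 0.95 (0.84 to 1.08) there. *Tgfbr1* was at 0.71 (0.63 to 0.81) at 3 dpi and 0.98 (0.78 to 1.21) at 7 dpi. *Acvr2b* was at 0.44 (0.22 to 0.81) and 0.87 (0.37 to 1.79) in the same order. At 1 dpi, 94 cycling cells had 0.63 of *Acvr1* (0.43 to 0.90) and 0.80 of *Bmpr1a* (0.65 to 0.98). Cycling cells were deeper, with a median of 19070 UMIs against 4505 at 3 dpi, and the part of depth was not tested.

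MSC lineage cells were then compared with 5 other classes, each measured in all 4 libraries, by edgeR's quasi-likelihood test with the library as a block and Benjamini-Hochberg adjustment over all genes tested. Because each library is also a time point, the spread behind these tests is that of the class difference across time points. The standard error (SE) after each ± was computed from the log2 fold change and its test statistic, so it is no separate measure of precision. *Bmpr1b* had too few counts to be tested in any of them.

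Against endothelial cells 5 members differed, where 26.4% of genes did. Of these, 3 were higher in MSC lineage cells, where 15.3% of genes were, and 2 were lower, where 11.1% were. *Bmpr1a* had a log2 fold change of 6.27 ± 0.61 (SE, edgeR adjusted p = 5.94e-06, higher in 4 of 4 libraries), a fitted value that rests on 1 endothelial UMI. *Tgfbr3* was higher by 1.78 ± 0.42 (edgeR adjusted p = 0.0069, 3 of 4 libraries) and *Tgfbr2* by 0.85 ± 0.27 (edgeR adjusted p = 0.033, 3 of 4). *Bmpr2* was lower, at -1.48 ± 0.23 (edgeR adjusted p = 0.000301), as was *Acvr2b*, at -2.03 ± 0.61 (edgeR adjusted p = 0.0269), both in 4 of 4 libraries. The *Tgfbr2* call was lost without the uninjured, 1 dpi or 3 dpi library, at edgeR adjusted p = 0.057, 0.206 and 0.094, and with no block, at 0.052. The *Acvr2b* call was lost without the 1, 3 or 7 dpi library, at 0.148, 0.111 and 0.078.

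Against mural cells *Tgfbr2* (2.57 ± 0.38, edgeR adjusted p = 3e-05), *Tgfbr3* (1.87 ± 0.37, edgeR adjusted p = 0.00079) and *Acvr2a* (1.59 ± 0.48, edgeR adjusted p = 0.0258) were higher in MSC lineage cells in 4 of 4 libraries, where 10.8% of genes were higher, and no member was lower, where 6.29% were. Without the uninjured library the *Acvr2a* call was lost (edgeR adjusted p = 0.234). The 1 and 3 dpi libraries held 8 and 9 mural cells, and *Acvr2a* had 17 mural UMIs in all, so agreement in those libraries rests on few UMIs. Mural cells at 7 dpi carried 8498 CPM of MSC lineage markers against 522 in uninjured muscle, and the part of that in these values was not tested. Against muscle cells *Tgfbr2* was higher (2.74 ± 0.29, edgeR adjusted p = 7.92e-05) and *Acvr2b* lower (-2.30 ± 0.42, edgeR adjusted p = 0.00271), each in 4 of 4 libraries, where 16.6% and 9.31% of genes were. These 2 members were the only ones past the threshold against muscle, where 25.9% of genes were past it. *Tgfbr3* against muscle passed only without the 1 dpi library (1.05, edgeR adjusted p = 0.028), the library in which muscle cells had more of it than MSC lineage cells.

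Against monocytes and macrophages 6 members were higher in MSC lineage cells, each in 4 of 4 libraries, where 32.3% of genes were. They were *Bmpr1a* (5.54 ± 0.28, edgeR adjusted p = 7.77e-06), *Tgfbr3* (5.32 ± 0.36, edgeR adjusted p = 1.4e-05), *Tgfbr2* (1.61 ± 0.19), *Acvr2a* (1.58 ± 0.30), *Acvr1* (1.42 ± 0.24) and *Bmpr2* (1.20 ± 0.17), the last 4 at edgeR adjusted p between 0.000228 and 0.00259. No member was lower, where 24.1% of genes were. *Tgfbr1* stood at -0.56 ± 0.21 with an edgeR adjusted p of 0.0505, which passed without the 1 dpi library (0.047). By CPM, *Tgfbr1* was higher in MSC lineage cells in 2 libraries and lower in 2.

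Against NK and T cells 8 members were higher, where 36.5% of genes were, and none was lower, where 27.2% were. In either direction 63.7% of genes differed. *Bmpr1a* led with 4.53 ± 0.23 (edgeR adjusted p = 4.02e-06), followed by *Tgfbr3* (3.94 ± 0.25), *Acvr2b* (3.92 ± 0.69, on 2 UMIs in NK and T cells), *Acvr1* (3.77 ± 0.34), *Bmpr2* (3.49 ± 0.30) and *Acvr2a* (2.91 ± 0.24). *Tgfbr2* (1.41 ± 0.16, edgeR adjusted p = 0.000142) and *Tgfbr1* (0.55 ± 0.16, edgeR adjusted p = 0.0164) differed least among the 8. The *Tgfbr1* call was lost without the uninjured, 1 dpi or 3 dpi library, at edgeR adjusted p = 0.056, 0.069 and 0.067.

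**Figure D4:**
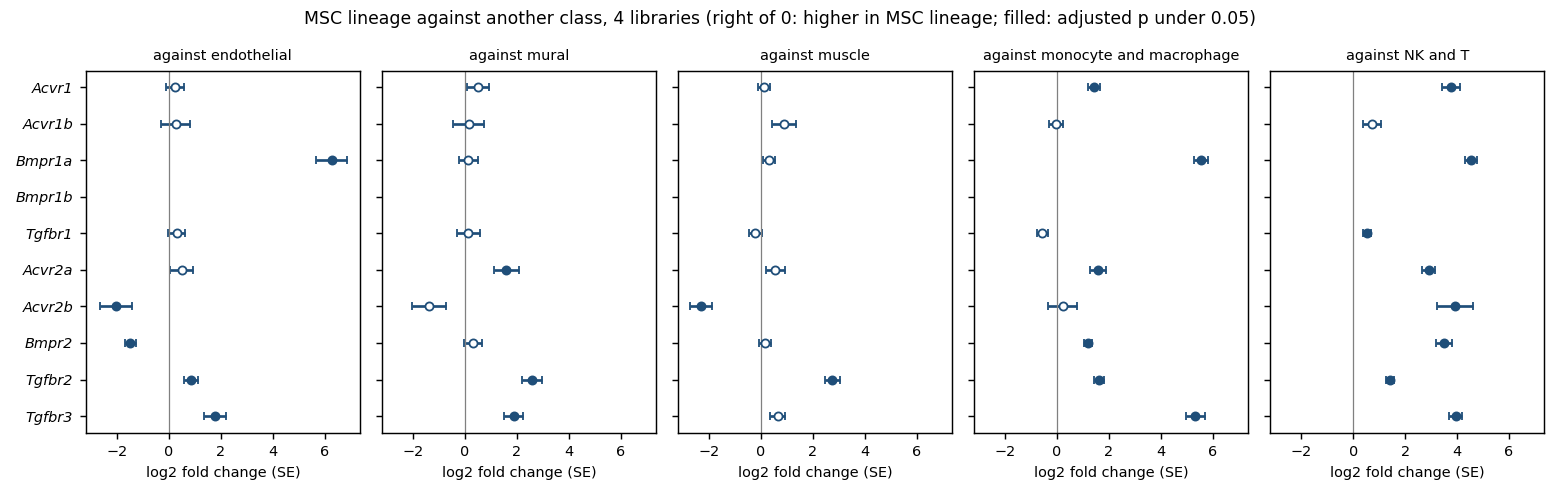
Log2 fold change of each receptor in MSC lineage cells against 5 other classes (horizontal axis, with bars of 1 SE; right of 0 is higher in MSC lineage cells), with filled points where edgeR's adjusted p was under 0.05 and no point for *Bmpr1b*, which was not tested. *Tgfbr2* lies right of 0 in all 5 comparisons, from 0.85 to 2.74, while *Bmpr2* lies left of 0 against endothelial cells, at -1.48.

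The ligands, Smad proteins and other receptors of the pathway were counted in MSC lineage cells by the same 2-fold rule. From uninjured muscle to 7 dpi, 5 of 14 ligands with enough UMIs were higher and 7 lower, where 18.2% and 10.3% of all genes were. *Inhba*, the activin A subunit, went from 16.2 to 93.0 CPM (5.73-fold, 5.38 to 6.11), *Gdf11* from 2.59 to 10.3 and *Tgfb3* from 36.0 to 116. *Bmp7* went from 25 to 2.04 CPM (12.2-fold lower, 9.83 to 15.4), *Bmp2* from 116 to 10.0 (11.6-fold, 10.5 to 12.9) and *Bmp5* from 58.1 to 8.12 (7.16-fold, 6.40 to 8.02). At 1 dpi against uninjured muscle 2 ligands were higher, with *Gdf6* at 2.81-fold and *Inhbb* at 2.66-fold, and 1 was lower, *Bmp7*, at 2.06-fold, where 10.9% and 5.39% of all genes were.

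Of 6 related receptors and co-receptors with enough UMIs, 1 was higher at 7 dpi than in uninjured muscle and 3 were lower, against the same 18.2% and 10.3% of all genes. *Cd109*, a co-receptor that binds TGF-beta, went from 4.22 to 24.8 CPM (5.88-fold, 5.19 to 6.67). The BMP co-receptors *Rgmb*, from 102 to 28.4 CPM, and *Rgma*, from 85.7 to 30.1, were 3.58-fold and 2.85-fold lower, and *Acvrl1*, a type I receptor of vessels, was 2.04-fold lower. All 14 receptor-bound and Smad proteins had enough UMIs and 1 of them passed 2-fold over the same interval, *Smad9*, from 0.75 to 1.70 CPM. In chondrocyte-like cells against MSC lineage cells at 7 dpi, 2 of 7 related receptors were higher, with the decoy receptor *Bambi* at 80.1 against 23.6 CPM (3.39-fold, 3.13 to 3.66), and 1 was lower, *Acvrl1*, where 4.96% of all genes were higher and 7.55% lower. None of the 14 Smad and receptor-bound proteins passed 2-fold there, while 2 ligands were higher, among them *Bmp6* at 2.17-fold, and 3 were lower, among them *Bmp4* at 2.81-fold and *Bmp7* at 2.23-fold. The transgene carries murine *Bmp4* cDNA, and any transcripts from it were not separated from those of the native gene.

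The genes whose level ran most like that of a member were named over 36 combinations of class and library with at least 50 cells, by the Pearson correlation of log2(CPM + 1) among 12843 genes. These points share libraries and depths, so the values are a description. For *Bmpr2* the closest gene was *Stx12* (r = 0.94), for *Tgfbr3* it was *Cuedc1* (0.93), for *Bmpr1a* *Hoxc6* (0.87), for *Acvr2b* *Dync1li2* (0.87) and for *Acvr2a* *Nav1* (0.86). *Tgfbr2* (*Dusp7*, 0.75), *Acvr1b* (*Zfp597*, 0.67) and *Tgfbr1* (*Slco2b1*, 0.67) had no gene as close, and *Bmpr1b* was under the minimum of 500 UMIs.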

How the data were processed

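The 4 droplet libraries came from digested tibial muscle, 1 per time point. The authors counted reads with Cell Ranger 5.0.0 (STAR aligner) on mm10, per the labels, and deposited whole-number, unscaled UMI counts for each gene in each barcode. The methods place a down-sampling of reads, where needed, ahead of the count matrix. The deposited libraries still differed in depth and were used as they are. The submitters' processing notes also list Seurat 3.1.1.

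Cells within 2 SD of their library's mean log10 UMI and gene counts and with at most 10% mitochondrial UMIs were kept, and the 7.5% of cells with the highest Scrublet doublet scores (scanpy 1.11.5) were removed. A cell joined a class when at least 3 markers of its list carried a UMI, with a lead of 2 over every other list. Mesenchymal cells with up to 2 of 10 cartilage markers were MSC lineage and those with at least 6 chondrocyte-like. Subgroups of the MSC lineage needed 3 markers and a lead of 1, hypertrophic cells 2 markers and cycling cells 3. UMIs were summed per class and library, so deep cells weigh more, and expressed as CPM. Intervals are 95% exact Poisson, Clopper-Pearson or conditional binomial, for counting error alone, and a count of 0 was set to a floor of 3. edgeR 4.0.16 in R 4.3.3 compared classes over the 4 libraries after TMM scaling and filterByExpr, with DESeq2 1.42.0 as an alternative. Libraries are the unit, so each p-value measures spread between libraries that differ in time point.

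Tests were run first on simulated counts, in which edgeR recovered 91.5% to 97% of 200 genes changed 4-fold, by comparison. The changed genes were drawn only from those with enough counts for the smallest library, at a fixed dispersion. The rate therefore does not describe receptors below that level. All 10 receptors are described. Of the pathway lists, genes past 2-fold with at least 100 UMIs are named, at most the 3 largest per direction and comparison, and the closest gene of each receptor with at least 500 UMIs, of which that of *Acvr1* is not reported here. The members, marker lists and pathway lists were chosen with earlier results of these data known, and the gate limits after cell numbers were seen. Alternatives were another doublet or cell filter, a stricter gate, averaged or thinned cells, another scaling, threshold or minimum, no block, and each library left out. Positions are from GENCODE M21 on GRCm38, the build called mm10. Counting with regard to strand is not given in the sources used here. Whether reads of the opposite-strand neighbours named were kept apart from those of the receptor was not checked.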

Additional observations from a re-analysis of the deposited data

Results flagged for a closer look

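Several receptors moved past 2-fold in opposite directions in classes of the same libraries, with counting intervals that did not include an equal level. None of these differences was tested, since each time point is a single library. *Tgfbr3* rose by 1.60 on the log2 scale in endothelial cells from 3 to 7 dpi, from 11 to 23 UMIs, whereas it moved by -1.29 in MSC lineage cells and by -2.27 in tenocyte-like cells. *Bmpr1b* moved by 4.35 in MSC lineage cells from uninjured muscle to 7 dpi. It moved by -1.24 in tenocyte-like cells, which are a part of that lineage. In the *Pi16* group *Bmpr1b* moved by 4.20 over that interval, from 3 to 8 UMIs. In the *Smoc2* group it moved by 4.79, from 3 to 11 UMIs. With thinned cells the shares holding *Bmpr1b* in uninjured muscle and at 7 dpi were 0.0548% and 0% in the *Pi16* group. They were 0% and 0.147% in the *Smoc2* group, and 0% and 0.504% in tenocyte-like cells. *Acvr2b* moved by 1.68 in monocytes and macrophages from 1 to 3 dpi, from 14 to 13 UMIs in fewer cells, and by -1.13 in MSC lineage cells and -1.69 in the *Smoc2* group. *Acvr2a* moved by 1.10 in Schwann cells over the same step, from 19 to 18 UMIs, and by -1.73 in muscle cells, from 20 to 26 UMIs.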

How the results depend on the processing

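No direction of a called value reversed under the alternatives. At 1 dpi against uninjured muscle the count of members past 2-fold went from 0 to 1 with a stricter gate (*Bmpr1b*) and to 2 at a threshold of 1.5. At 3 against 1 dpi it was 2, or 1 with averaged cells and 4 at a threshold of 1.5, and at 7 against 3 dpi it was 3, or 6 at 1.5. Both *Bmpr1b* calls were lost with thinned cells. The step from 1 to 3 dpi then fell short of the minimum number of UMIs, and the step from 3 to 7 dpi was under 2-fold. For chondrocyte-like against MSC lineage cells it was 3, and 0 with averaged or thinned cells. Against endothelial cells 5 members differed, and leaving out each library in turn gave 3 to 4, with 3 without the 1 dpi and 3 without the 3 dpi library. The block is the library, which pairs the classes because both come from the same pool. With no block the counts were 4 for endothelial, 3 for mural, 2 for muscle, 6 for monocyte and macrophage and 8 for NK and T cells, and the endothelial *Tgfbr2* call alone was lost. No paired analysis was possible between time points because each is a single pool of animals. The endothelial *Tgfbr2* call was also lost with DESeq2 (adjusted p = 0.062) and with doublets kept (edgeR, 0.118), and the mural *Acvr2a* call with a stricter gate (0.184). Of the class fold changes under alternatives, 433 kept direction and side of the threshold, 14 no longer passed it and 3 newly passed it. The ratios between libraries, or between chondrocyte-like and MSC lineage cells, were less stable. Of these, 257 stayed within the counting interval of the main value and 93 moved outside it. *Bmpr1b* and *Acvr2b* rest on few UMIs and small classes on few cells, so their precision is limited by depth. The causes of these changes were not tested.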
